A study of Homo sapiens with 6 samples.

Results

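The genes of the TGF-β and BMP pathways were examined for binding of DPF3a, SMAD4 and p300 in 786-O cells. They are 50 genes, chosen by name and pathway role out of 20007 protein-coding genes. The choice was made with earlier results of these data known, so comparisons with all protein-coding genes only describe the members. The 50 genes fall into 7 roles: 10 ligands, 4 latency proteins, 12 receptors, 3 extracellular antagonists, 6 SMAD transducers, 10 feedback inhibitors and 5 target genes. A peak was given to a gene when its summit, the position of the highest pileup, lay between 5000 bp upstream of the gene and its end. All 50 genes were found in the annotation, and the windows covered 4.10 Mb.

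Binding was measured by ChIP-seq, the sequencing of immunoprecipitated chromatin, in 3 groups of 2 libraries each, and the authors deposited 1 list of peaks per group, made from both libraries. 786-O is an established human cell line that came from a clear cell carcinoma of the kidney. DPF3a, a short isoform of a histone-reading subunit of the SWI/SNF chromatin remodeling complex, was overexpressed there with an HA tag and precipitated through the tag, after fixation with a protein crosslinker and formaldehyde. SMAD4 and p300 were precipitated with antibodies to the endogenous proteins after formaldehyde alone, and the labels leave unsaid whether those cells carried the DPF3a construct. The labels name no ligand treatment for any group. Each library pair is therefore known only as a pool, so no spread between replicates can be given, no test was made, and the values below describe 1 pooled list per factor. In all, 51530 DPF3a peaks, 46367 SMAD4 peaks and 20380 p300 peaks were listed.

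TGF-β, activin and BMP ligands bind pairs of receptor kinases at the cell surface, and the activated receptors phosphorylate SMAD proteins. SMAD2 and SMAD3 carry the signal of TGF-β and activin and SMAD1, SMAD5 and SMAD9 that of BMP, and both sets enter the nucleus with SMAD4 to bind DNA. The pathway turns on its own inhibitors, among them SMAD6 and SMAD7, and in kidney epithelium it is known for driving matrix production and the change to a mesenchymal cell state. The histone acetyltransferase p300 is a coactivator of SMAD complexes.

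Sequence was read from hg38 in windows of 50 bp on either side of SMAD4 summits and is given on the strand of the gene. The first 4 windows belong to the DPF3a-SMAD4 site with the highest joint rank of fold enrichment in the SMAD transducers, feedback inhibitors, ligands and receptors, and they are shown because these sites led their roles. The last 2, with the BMPR1B window, are the members' SMAD4 summits that held the palindromic SMAD element GTCTAGAC. Capitals mark exact matches, on either strand, to this element, to the SMAD element CAGAC, which reads GTCTG on the opposite strand, to the GC-rich SMAD element GGCGCC and to the AP-1 consensus TGAGTCA, which reads TGACTCA on the opposite strand. The windows of the leading sites of LTBP1 and ID2 lay in untranslated exons of alternative transcripts and are not printed.
SMAD3, intron 1, chr15:67091349-67091449, plus strand: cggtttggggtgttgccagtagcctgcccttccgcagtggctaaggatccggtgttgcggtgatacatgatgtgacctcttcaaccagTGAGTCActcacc
SMAD7, intron 2, chr18:48942706-48942806, minus strand: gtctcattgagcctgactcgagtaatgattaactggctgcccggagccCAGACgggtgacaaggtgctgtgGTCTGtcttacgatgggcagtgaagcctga
BMP6, intron 1, chr6:7758633-7758733, plus strand: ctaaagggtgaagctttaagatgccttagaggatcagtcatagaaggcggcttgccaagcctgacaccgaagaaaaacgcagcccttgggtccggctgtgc
BMPR1B, intron 9, chr4:95130109-95130209, plus strand: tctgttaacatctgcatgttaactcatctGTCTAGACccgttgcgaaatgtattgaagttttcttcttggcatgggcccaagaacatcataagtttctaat
TGFB2, intron 1, chr1:218375087-218375187, plus strand: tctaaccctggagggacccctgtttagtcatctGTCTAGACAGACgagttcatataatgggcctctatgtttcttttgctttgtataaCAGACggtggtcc
SMAD6, promoter, chr15:66702163-66702263, plus strand: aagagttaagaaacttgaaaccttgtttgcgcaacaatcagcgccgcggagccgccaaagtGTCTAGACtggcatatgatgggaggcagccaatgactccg

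DPF3a and SMAD4 had peaks at most of the pathway genes. DPF3a was found at 44 of 50 genes, where 65.9% of all protein-coding genes had a DPF3a summit in the same window. SMAD4 was found at 47, against 72.4%, and p300 at 36, against 51.6%. Each gene with a DPF3a peak also had a SMAD4 peak. Peaks of all 3 lists were present at 35 genes, and 9 genes (TGFB3, INHBB, LTBP4, ACVR2B, ENG, SKI, PMEPA1, TGIF2 and ID2) had DPF3a and SMAD4 peaks without p300. BMP2 had SMAD4 and p300 peaks without DPF3a, and the antagonist genes NOG and FST had SMAD4 peaks alone. For these combinations of lists the shares over all protein-coding genes were not computed. No peak of any list was found at 3 genes, BMP4, ACVRL1 (a receptor of endothelial cells) and GREM1, whereas 24.3% of protein-coding genes had none.

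**Figure D1:**
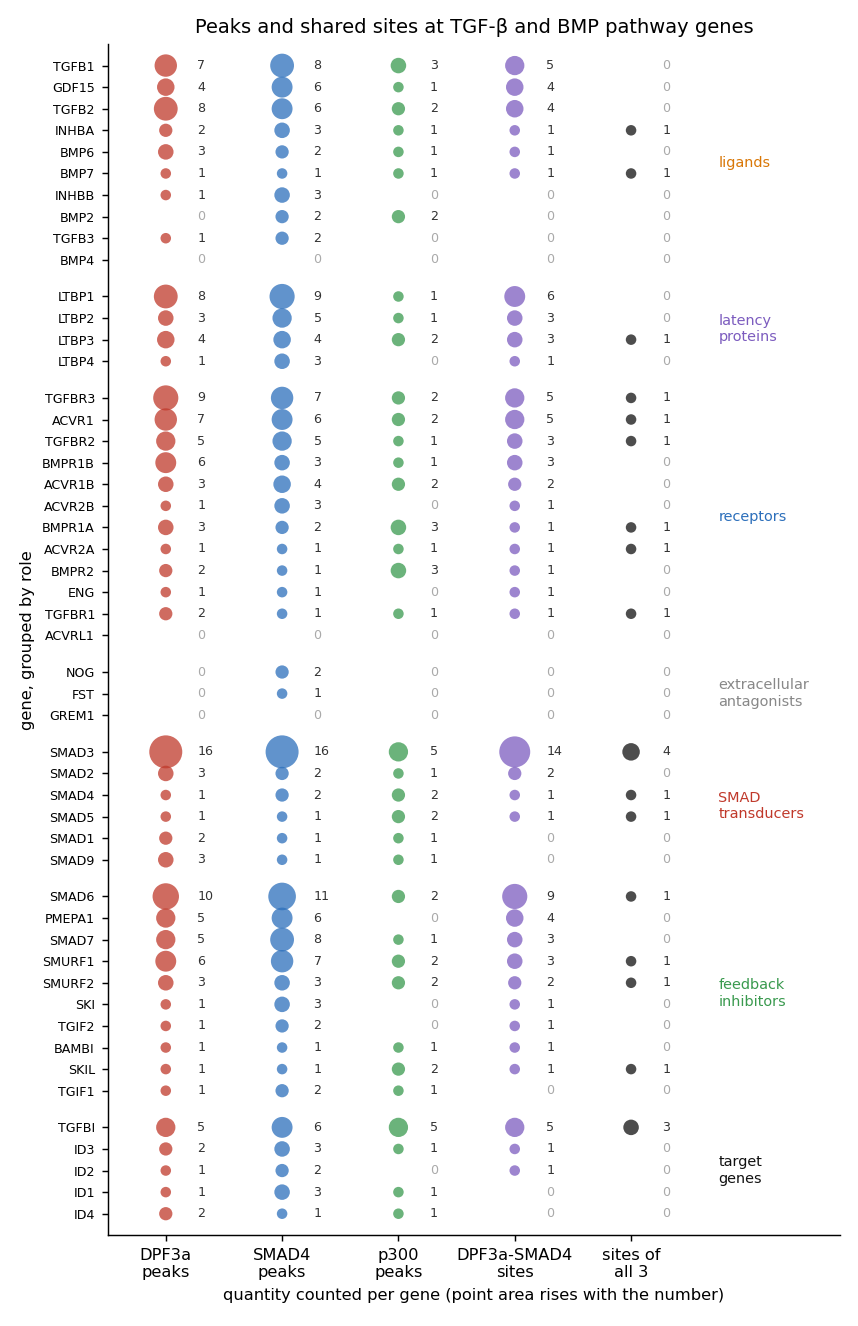
Number of peaks per list, of DPF3a-SMAD4 sites and of sites of all 3 factors (columns) at each of the 50 genes (rows, grouped by role); the point area rises with the printed number. SMAD3 (14 DPF3a-SMAD4 sites) and SMAD6 (9) stand above the other genes, and BMP4, ACVRL1 and GREM1 are at 0 in every column.

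Promoter peaks were also frequent. A promoter, taken as 1000 bp upstream to 100 bp downstream of any transcript start of the gene, held a DPF3a summit at 31 genes (background 41.7%), a SMAD4 summit at 42 (background 57.3%) and a p300 summit at 24 (background 32.9%). All 10 feedback inhibitors, all 6 SMAD transducers and all 4 latency protein genes had a SMAD4 summit in a promoter. So had 8 of 10 ligands, 8 of 12 receptors, 4 of 5 target genes and 2 of 3 extracellular antagonists. For DPF3a the promoter counts were 6 of 6 SMAD transducers, 7 of 10 feedback inhibitors, 8 of 12 receptors and 5 of 10 ligands. For p300 they were 4 of 6, 5 of 10, 7 of 12 and 4 of 10 in the same order.

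A peak was counted as shared when the overlap covered at least 0.5 of both peaks. A DPF3a peak shared with SMAD4 was present at 37 genes, against 54.1% of protein-coding genes. A site of all 3 factors, which is a DPF3a peak shared with SMAD4 and with p300, was present at 17 genes (34%), against a background of 29.9%. Both shares moved with the setting. With an overlap of 1 bp they were 56.0% of pathway genes and 41.0% of protein-coding genes. With lists of equal size they were 16% and 8.82%, and without summits that lay in another gene's window 30% and 20.5%. With summits within 200 bp the share of pathway genes, 34%, was also the higher. The shares were closer with 0 bp upstream (26% and 22.1%) and without coding-exon summits (30% and 27.2%). With 20000 bp upstream they were 34% and 34.3%, and with scores over 100 they were 6.0% and 8.08%. Whether the pathway genes lay above the background therefore depended on the setting. The 17 genes were 6 receptors (TGFBR1, TGFBR2, TGFBR3, ACVR1, ACVR2A and BMPR1A), 4 feedback inhibitors (SMAD6, SKIL, SMURF1 and SMURF2), 3 SMAD transducers (SMAD3, SMAD4 and SMAD5), the ligands BMP7 and INHBA, the latency protein gene LTBP3 and the target gene TGFBI. At 18 genes all 3 lists had peaks without a site of all 3. At 7 genes (TGFB3, INHBB, SMAD1, SMAD9, TGIF1, ID1 and ID4) DPF3a and SMAD4 both had peaks but shared none at this overlap. The matching shares over all protein-coding genes were not computed, so these counts of peaks without sharing only describe the genes.

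A longer window can hold more summits, so the counts were also set beside genes of like length. The median length was 49.3 kb for the pathway genes and 27.5 kb for all protein-coding genes. Within length classes, all 22 pathway genes of 30 to 100 kb and all 12 over 100 kb had a DPF3a and a SMAD4 peak, compared with 78.4% and 89.2% of genes of these lengths for DPF3a and with 83.7% and 87.4% for SMAD4. DPF3a-SMAD4 sites were present at 19 of 22 and 12 of 12 of these longer genes, against 65.8% and 77.8%. Among the 7 pathway genes of 10 to 30 kb the counts were 4 for DPF3a, 5 for SMAD4 and 3 for p300, under the shares of 62.8%, 72.4% and 46.4% in that class. Of the 9 pathway genes under 10 kb, 6 had a DPF3a peak (38.3% of genes of that length), 8 a SMAD4 peak (48.6%), 4 a p300 peak (27%), 3 a DPF3a-SMAD4 site (28.9%) and 0 a site of all 3 (13.3%).

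**Figure D2:**
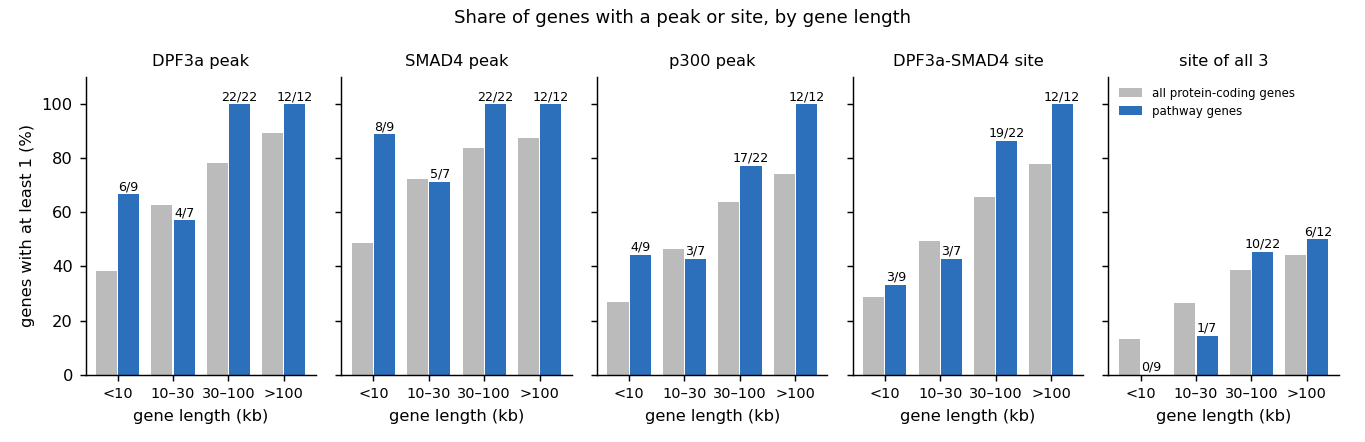
Percentage of genes with at least 1 peak or site (y axis) by gene length in kb (x axis), for all protein-coding genes (grey) and for the 50 pathway genes (blue, with the number of genes printed); panels are the 3 lists, DPF3a-SMAD4 sites and sites of all 3 factors. The pathway genes above 30 kb all had DPF3a and SMAD4 peaks, and those of 10 to 30 kb lay below the grey bars.

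Per length of window, summits were denser at the pathway genes. There were 154 DPF3a summits (3.76 per 100 kb, against 2.45 over all protein-coding windows), 173 SMAD4 summits (4.22 against 2.40) and 62 p300 summits (1.51 against 1.19). DPF3a-SMAD4 sites numbered 103, or 2.52 per 100 kb against 1.51, and sites of all 3 factors 22, or 0.537 against 0.483. The density was higher at the pathway genes in each length class for each list, and the difference was widest for SMAD4 in genes under 10 kb, with 18.4 against 6.35 summits per 100 kb. SMAD3 and SMAD6, neighbours on chromosome 15 with 281 kb between them, held 23 of the 103 DPF3a-SMAD4 sites between them, and without these genes the density of such sites was 2.07 per 100 kb. Of the 22 sites of all 3 factors SMAD3 held 4 and SMAD6 held 1. Their density without these genes was not computed, so the small difference from the background may rest on them. Of the DPF3a summits 11, of the SMAD4 summits 14 and of the p300 summits 8 also lay in the window of another protein-coding gene.

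**Figure D3:**
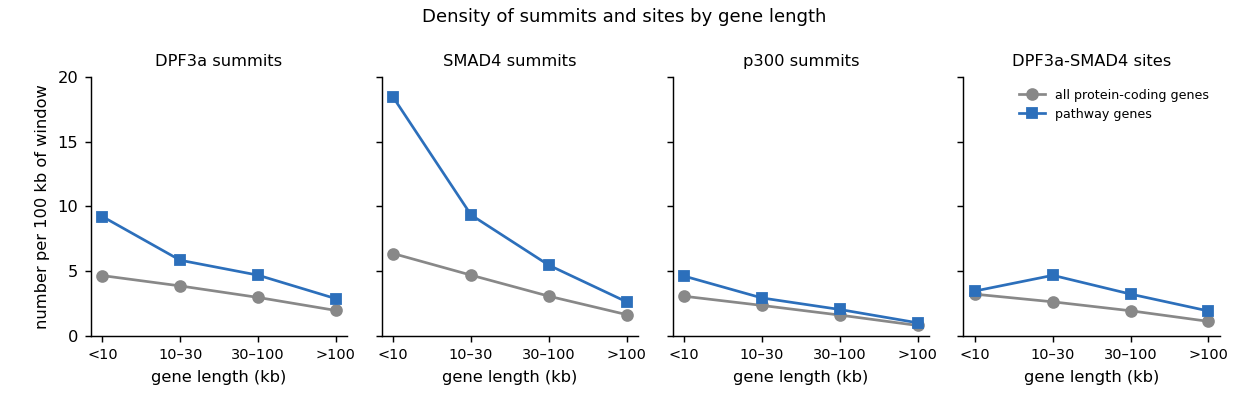
Number of summits or DPF3a-SMAD4 sites per 100 kb of gene window (y axis) by gene length in kb (x axis), for all protein-coding genes (grey circles) and for the pathway genes (blue squares). The blue values lie above the grey ones in every class, from 18.4 against 6.35 for SMAD4 in the shortest genes to 0.997 against 0.791 for p300 in the longest.

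The peaks were tall but stood on a high local background. The fold enrichment that the peak caller gives is the pileup at the summit over the local background, with 1 read added to each, and pileup and background in reads were recovered from it and from the deposited −log10 p. The median SMAD4 pileup was 69 reads at the pathway genes and 45 in all protein-coding windows, over median backgrounds of 10.1 and 5.87 reads. DPF3a had 32.5 reads against 25, over backgrounds of 4.38 and 2.96, and p300 had 29 against 24, over 5.32 and 4.14. The median fold enrichment was lower at the pathway genes than in all protein-coding windows in each list, at 5.94 against 6.40 (DPF3a), 5.42 against 6.46 (SMAD4) and 4.44 against 4.90 (p300). What the background at these genes is made of was not tested. The highest SMAD4 pileup of any member was at the promoter of SKIL, which encodes the SMAD corepressor SnoN, with 389 reads (95% exact Poisson interval 351 to 429.6) and a fold enrichment of 9.04. These intervals cover counting error only.

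The overlap rule for a DPF3a-SMAD4 site favours summits that lie close together, so their distance only describes the sites. The median distance over the 103 sites was 43 bp, and 62 of them were within 50 bp. The same distance over all protein-coding windows was not computed. Of the DPF3a peaks at pathway genes 66.9% were shared with SMAD4, near the 60.9% of all protein-coding windows. The share of DPF3a peaks also found in the p300 list was 14.9%, against 20.4%. From the other side, 59.5% of the SMAD4 peaks at pathway genes were shared with DPF3a, against 63.9%. Of the p300 peaks there, 37.1% were shared with DPF3a, against 43.7%, and 54.8% with SMAD4, against 54.3%.

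Promoter sites and other sites differed in which factor ranked higher. Of 103 DPF3a-SMAD4 sites, 32 lay in a promoter, and there the median percentile of fold enrichment within its own list was 80.6 for SMAD4 and 41.9 for DPF3a. At the 71 sites outside promoters the order was the other way, with 39.5 for SMAD4 and 54.4 for DPF3a. The SMAD4 percentile was the higher at 26 of 32 promoter sites (81.2%) and at 30 of 71 other sites (42.3%). Over all protein-coding windows the same shares were 86.0% and 36.9%, so the pathway genes followed the pattern of the lists. A p300 peak joined 12 of the 32 promoter sites (37.5%, against 56.5% over all protein-coding windows) and 10 of the 71 others (14.1%, against 17.8%).

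**Figure D4:**
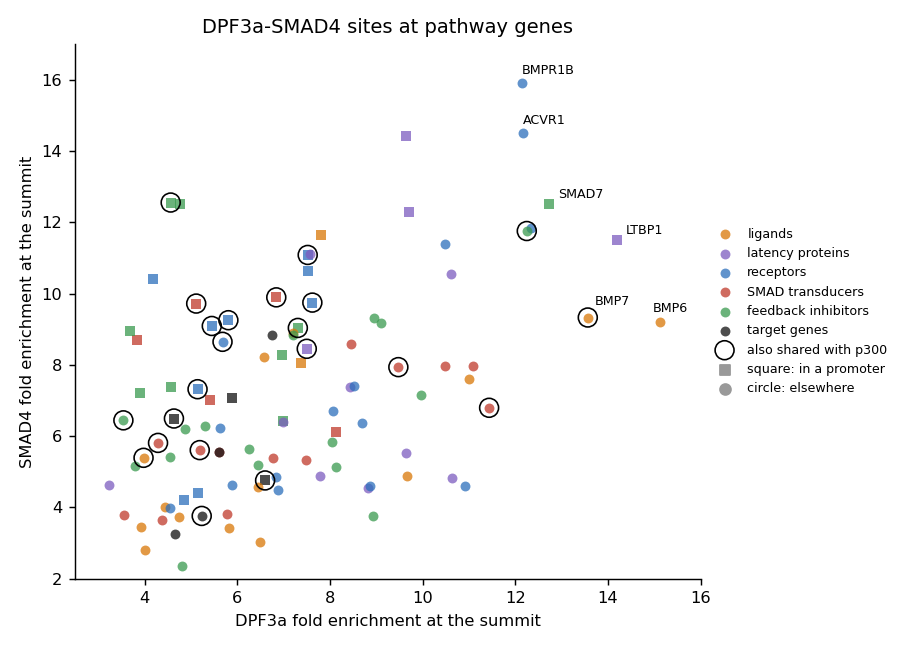
Fold enrichment of DPF3a (x axis) and SMAD4 (y axis) at the 103 shared sites, coloured by the role of the gene, with squares for promoter sites, circles for other sites and black rings for the 22 sites also shared with p300. Most promoter sites lie at moderate DPF3a values, and of the 6 named sites only that of BMP7 is ringed.

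The ligand genes were bound unevenly. TGFB1, which encodes the main TGF-β ligand of epithelium, had 7 DPF3a, 8 SMAD4 and 3 p300 peaks and 5 DPF3a-SMAD4 sites. At its promoter site DPF3a had a fold enrichment of 7.38, with the summit 82 bp before the start, and SMAD4 had 8.04, with the summit 113 bp after it. Some of these peaks cannot be assigned to TGFB1 alone, since 2 of the 5 sites also lay in the window of CCDC97 and the promoter site in that of TMEM91. TGFB2, a ligand of the same family, had 8 DPF3a and 6 SMAD4 peaks, and its 4 shared sites all lay in intron 1, between 22011 and 52736 bp from the start. The strongest of them for DPF3a had a fold enrichment of 11.0 (92 reads, 74.2 to 113). GDF15, a stress-induced relative of the BMPs, had 4 shared sites, all upstream of its canonical transcript, and the one nearest the start of the annotated gene had the highest SMAD4 value of the ligands, 11.6 (130 reads, 109 to 154). TGFB3 had 1 DPF3a peak and 2 SMAD4 peaks, all also in the window of IFT43.

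BMP6 and BMP7 had few peaks, among them strong ones. BMP6 had the highest DPF3a value of the ligands, 15.1 in intron 1 (64 reads, 49.3 to 81.7), where SMAD4 had 9.19. The window printed above for this site held none of the 6 consensus sequences searched. BMP7 had 1 peak in each list, and the 3 formed a site of all 3 factors in intron 2, 53968 bp from the start by the DPF3a summit, where DPF3a had 13.6, SMAD4 9.33 and p300 4.58. INHBA, which encodes a subunit of activin, had a site of all 3 whose DPF3a summit lay 1978 bp before its canonical start, with 3.98, 5.39 and 5.16, the last being the highest p300 value of the ligands. INHBB, which encodes another activin subunit, had 1 DPF3a and 3 SMAD4 peaks, all upstream and unshared.

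Among the latency proteins, some of which tether TGF-β to the matrix, LTBP1 led in count. It had 8 DPF3a and 9 SMAD4 peaks and 6 shared sites, 5 of them in introns, spread over its 453 kb. The strongest, in intron 4 at an alternative start, reached 14.2 in the DPF3a list and 11.5 in the SMAD4 list, with summits 14 bp apart. An AP-1 consensus lay within 50 bp of 5 of its 8 DPF3a summits, 5 of its 9 SMAD4 summits and its 1 p300 summit, where the shares over all protein-coding windows were 19.7%, 12.6% and 2.83%. The lists share sites, and these 11 summits lay at 6 places when summits within 200 bp of each other were counted once. LTBP4 had 1 DPF3a peak, in intron 25, shared with the strongest SMAD4 peak of the group, 14.4 (125 reads, 104 to 149). LTBP2 had 3 shared sites, all in introns. LTBP3 had 3 shared sites, of which the one over exons 21 and 22 was a site of all 3 with 7.50, 8.45 and 3.83.

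Of the 12 receptor genes, 11 were bound by DPF3a and by SMAD4, and each of these 11 had at least 1 shared site, 24 in all. Sites of all 3 factors within 1000 bp of the canonical start, by the DPF3a summit, were found at TGFBR1 and TGFBR2, the signalling pair for TGF-β, at TGFBR3, which encodes the coreceptor betaglycan, and at ACVR1, ACVR2A and BMPR1A. The site of ACVR1 also lay in the window of UPP2. At TGFBR2 the DPF3a and SMAD4 summits were 2 bp apart, 80 and 82 bp before the start, at 7.62 and 9.75, and the p300 peak had 6.10. At TGFBR1 the values were 5.68, 8.65 and 4.97, with the SMAD4 summit in intron 1. At BMPR1A the DPF3a and SMAD4 summits were 493 bp apart, the widest gap of the receptors. At ACVR2A they were 47 bp apart, and DPF3a had 5.81, SMAD4 9.25 and p300 5.45.

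TGFBR3 and ACVR1 had 5 shared sites each. The strongest of ACVR1, in intron 3, had 12.2 for DPF3a (44 reads, 32.0 to 59.1) and 14.5 for SMAD4 (95 reads, 76.9 to 116), and a p300 peak in the same intron, with 5.14, did not pass the overlap rule. ACVR1B, a type I activin receptor gene, had a shared site at its promoter, with 7.53 and 10.6, and another in intron 3. The activin receptor gene ACVR2B had 1 at its promoter, with 4.86 and 4.20. BMPR1B, a type I BMP receptor gene, had the highest DPF3a value of all members, 15.2 in intron 4, without a SMAD4 peak. Its site in intron 9, 372173 bp from the start by the DPF3a summit, had 12.1 for DPF3a and the highest SMAD4 value of the receptors, 15.9 (84 reads, 67.0 to 104), over the palindromic element. ENG, the gene of the coreceptor endoglin, had 1 DPF3a and 1 SMAD4 peak, shared in intron 2 with 12.3 and 11.8. BMPR2 had a promoter site whose SMAD4 summit held 266 reads (235 to 299.96), a fold enrichment of 10.4, and whose DPF3a value was 4.18.

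The extracellular antagonists, which trap ligands before they reach a receptor, were the only role without a DPF3a or p300 peak. NOG had 2 SMAD4 summits in its promoter with 3.18 and 2.91. FST had 1 in intron 1, within an alternative promoter, with 6.46 (20 reads, 12.2 to 30.9). The windows of these 3 genes together covered 50.5 kb, so few summits could be counted there.

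All 6 SMAD transducer genes had peaks in all 3 lists. SMAD3 had 16 DPF3a, 16 SMAD4 and 5 p300 peaks and 14 shared sites, 12 of them in intron 1. Among all protein-coding genes 52 had more such sites, and 67 of the 3665 genes over 100 kb had as many or more. Over these sites the DPF3a values ran from 3.56 to 11.4 and the SMAD4 values from 3.64 to 8.70, the highest SMAD4 value being at the promoter. The 4 sites shared with p300 lay 43992 to 84957 bp from the start and their p300 values were low, from 3.39 to 3.90. The site at 25793 bp, printed above with its AP-1 consensus, had 11.1 for DPF3a and 7.96 for SMAD4, with summits 4 bp apart and no p300 peak.

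The other SMAD transducers had far fewer peaks. SMAD5 had 1 site of all 3 factors at its start, where DPF3a had 5.11, SMAD4 9.72 and p300 8.61, the last being the highest p300 value of any member (51 reads, 37.97 to 67.06). The SMAD4 gene had a site of all 3 in untranslated exon 1 with 6.84, 9.89 and 4.58. SMAD2 had 2 DPF3a-SMAD4 sites, and its p300 peak in the promoter, 7.69 (33 reads, 22.7 to 46.3), was shared with neither list. SMAD1 and SMAD9 had no shared site, and the single SMAD4 peak of each lay at the start, with 6.30 and 11.3.

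The feedback inhibitors had 25 DPF3a-SMAD4 sites in 658 kb (3.80 per 100 kb). The target genes had more, 9.58 per 100 kb, but TGFBI, the longest of them, held 5 of their 7 sites. The density was 3.27 for SMAD transducers, 2.85 for ligands, 2.02 for latency proteins, 1.54 for receptors and 0 for the antagonists. Over all protein-coding genes it fell from 3.21 in genes under 10 kb to 1.11 in those over 100 kb, and the roles were not matched for length. The places of feedback inhibitors and SMAD transducers in this order rested on single genes. SMAD6 held 9 of the 25, and without it 16 sites in 573 kb remained (2.79 per 100 kb), under the value of the ligands. SMAD3 held 14 of the 18 sites of the SMAD transducers, and without it their density was 0.967 per 100 kb. Both of these values were computed after the data were seen. All 10 genes had DPF3a and SMAD4 peaks. SMAD6, which blocks BMP receptors, had 9 shared sites, and 6 of the 5845 genes of 30 to 100 kb, itself included, had as many or more. Its promoter SMAD4 summit, 23 bp before the start, held 278 reads (246 to 313) with a fold enrichment of 8.96, and the palindromic element began at base 62 of the window printed above. DPF3a had 3.69 there, its lowest value at the gene. The strongest SMAD6 site was in intron 3, 63770 bp from the start by the DPF3a summit, with 12.2 for DPF3a (121 reads, 100.4 to 145), 11.8 for SMAD4 and 3.88 for p300.

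**Figure D5:**
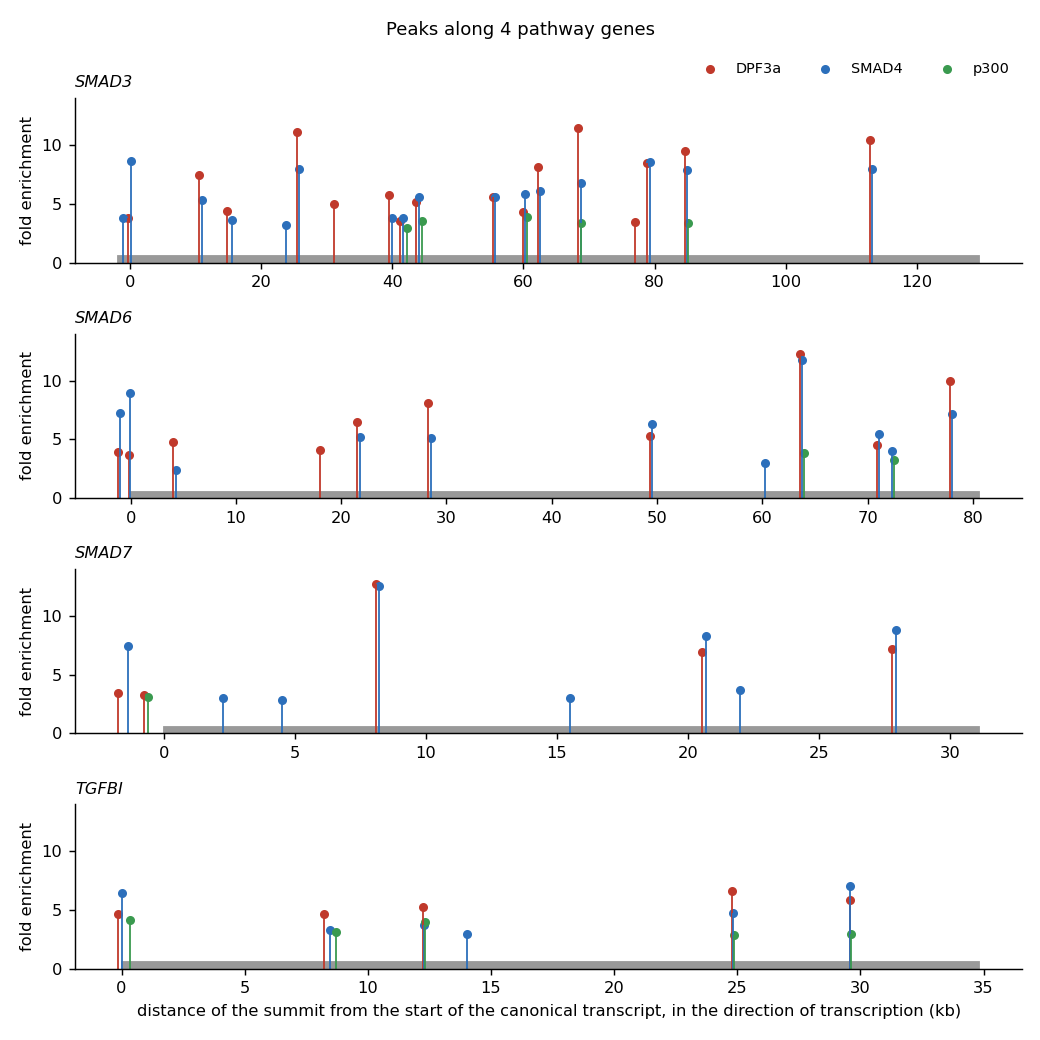
Fold enrichment of each peak (y axis) against the distance of its summit from the canonical start in kb (x axis) along SMAD3, SMAD6, SMAD7 and TGFBI, with the annotated gene as a grey bar and the 3 lists drawn slightly side by side. DPF3a and SMAD4 stems stand in pairs along SMAD3 and SMAD6, and the p300 stems, 5 each along SMAD3 and TGFBI, 2 along SMAD6 and 1 along SMAD7, stay at or below 4.15.

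SMAD7, which blocks TGF-β receptors, had a shared site in intron 2, at an alternative start, whose summits were 3 bp apart, and SMAD4 reached 258 reads there (227 to 291). DPF3a had 12.7 and SMAD4 12.5. This window held CAGAC on each strand. PMEPA1, the gene of a membrane protein that sequesters SMAD2 and SMAD3, had 4 shared sites in intron 1 with summits 1 to 22 bp apart and no p300 peak, and the tallest SMAD4 summit there held 351 reads (315 to 389.7). SMURF2, which encodes a ubiquitin ligase for SMADs and receptors, had a site of all 3 in exon 1, where DPF3a had 4.56, SMAD4 12.6 and p300 5.83. These SMAD4 and p300 values were the highest of the role, though BAMBI and SMAD7 each had 12.5 for SMAD4. BAMBI, the gene of a decoy receptor, had 12.5 for SMAD4 and 4.77 for DPF3a at its promoter, and its p300 peak there was shared with SMAD4 but not with DPF3a. SMURF1, the gene of a related ubiquitin ligase, had 3 shared sites in intron 1, the one with p300 at 3.54, 6.44 and 4.67. SKIL had its site of all 3 at the promoter, with 7.31, 9.04 and 4.39. SKI, TGIF1 and TGIF2, which encode corepressors, had 1 DPF3a peak each, shared with SMAD4 at SKI and TGIF2 and not at TGIF1.

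The target genes are short except TGFBI, and their density of SMAD4 summits, 20.5 per 100 kb, rests on a window of 73.1 kb in all. TGFBI, a matrix protein gene named for its induction by TGF-β, had 5 peaks of DPF3a, 6 of SMAD4 and 5 of p300, and 3 of its 5 shared sites were sites of all 3. Of the genes of 30 to 100 kb, 163 of 5845 had 5 or more DPF3a-SMAD4 sites. The p300 values at these 3 sites were 4.15 at the promoter, 3.96 in intron 2 and 2.87 in intron 8. ID1, ID2, ID3 and ID4 encode inhibitors of basic helix-loop-helix factors and are classical BMP targets. ID2 had the highest DPF3a (6.74) and SMAD4 (8.83, 220 reads, 192 to 251) values of the role at 1 shared site, 3066 bp before its canonical start by the DPF3a summit, and ID3 had a shared site 2872 bp before its start by the DPF3a summit with 5.60 and 5.55. At ID1 a DPF3a summit 2309 bp and a SMAD4 summit 2260 bp upstream belonged to peaks that did not pass the overlap rule. At ID4 the p300 value, 4.94, was the highest of the role.

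Summits in coding exons were kept apart. They were found at 4 genes for DPF3a (background 6.21%), 7 for SMAD4 (background 8.69%) and 6 for p300 (background 7.88%). For DPF3a these were TGFB1 (exon 1, 4.02, shared with neither list), LTBP1 (exon 18, 9.71), LTBP3 (exon 22, 7.50) and TGFBR1 (exon 1). For SMAD4 they were BMP2, GDF15, LTBP1, LTBP3, SMURF1, ID1 and the SMAD4 gene itself. The SMAD4 summit in exon 9 of SMAD4 was shared with neither list and had 181 reads (156 to 209), the highest SMAD4 fold enrichment of any member, 24.2. The next highest, at BMPR1B, was 15.9. For p300 the genes were GDF15, TGFBR1, TGFBR2, SMAD4 (exon 5, 5.25, 15 reads, 8.40 to 24.7), ID1 and ID3. The SMURF1 summit, in exon 13, also lay in the window of TRRAP. At TGFBR1, TGFBR2, ID1 and ID3 the exon was exon 1, within 311 bp of the start.

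The consensus sequences at the summits were counted within 50 bp. The palindromic element GTCTAGAC was found at 3 of 173 SMAD4 summits of the pathway genes (1.73%) and at 0.225% of SMAD4 summits in all protein-coding windows. The 3 are those of BMPR1B, TGFB2 and SMAD6 printed above, and in TGFB2 the element overlapped a CAGAC. At BMPR1B and SMAD6 it was also within 50 bp of the DPF3a summit, which makes 2 of 154 (1.3%, against 0.0715%). At TGFB2 the SMAD4 peak was weak, 2.95 (39 reads, 27.7 to 53.3), and had no DPF3a partner. Within 100 bp the element was also found at the SMAD4 summits of LTBP4, whose SMAD4 value there was the highest of the latency proteins, and of SMURF1. In the promoters of RefSeq (GRCh38.p14, 250 bases before to 50 after each start), in which 45 of the 50 genes had an entry, the element was in 1 of 87 entries, that of SMAD6, and in 0.202% of all 35116 promoters.

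The CAGAC element was at 29.5% of the SMAD4 summits of pathway genes, 22.7% of the DPF3a summits and 25.8% of the p300 summits, against 23.6%, 19.9% and 17.9% in all protein-coding windows. GGCGCC was at 10.4% of SMAD4 summits (against 7.45%), 4.55% of DPF3a summits (4.66%) and 3.23% of p300 summits (9.45%). The AP-1 consensus, bound by JUN and FOS, was at 16.2% of DPF3a summits (19.7%), 10.4% of SMAD4 summits (12.6%) and 4.84% of p300 summits (2.83%). It was found at summits of 16 genes. With summits within 200 bp counted once, it lay at 6 places in LTBP1, 4 in SMAD3 (6 summits), 4 in ACVR1 (4 summits) and 3 in TGFBR2 (4 summits), and at 1 or 2 places in each of the other genes. The RUNX consensus TGTGGTTT was at 5.19% of DPF3a summits (3.16%), 2.31% of SMAD4 summits (2.46%) and none of the 62 p300 summits (0.546%). The TEAD consensus CATTCC was at 13.6% (11.4%), 6.94% (8.28%) and 6.45% (4.49%) of the summits of the 3 lists in the same order. A match of letters is a description of the sequence, and none of these windows shows which protein was bound.

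A wider set of pathway genes gave lower counts. It holds further ligands, antagonists, receptors and SMAD regulators, and 57 of its 58 genes were found in the annotation. DPF3a had a peak at 38 of these 57 genes (66.7%), SMAD4 at 43 (75.4%) and p300 at 27 (47.4%), all near the shares of protein-coding genes given above. DPF3a-SMAD4 sites were at 32 (56.1%) and sites of all 3 at 15 (26.3%), and 13 (22.8%) had no peak.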

How the data were processed

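ChIP-seq was measured in 6 libraries, 2 each for DPF3a, SMAD4 and p300, and titles gave the group. According to its methods and the submitters' processing notes, the authors trimmed reads with cutadapt, mapped them to hg38 with Bowtie2 2.3.5.1, kept mapping qualities of at least 30, removed duplicates with Picard and called peaks with MACS2 2.2.5. Per the labels, each deposited list came from both libraries. How they were pooled, and any input control, is not given in the sources used here.

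The score deposited by the authors is the −log10 q times 10, and scores over 50 were kept. The authors also deposited, for each summit, a fold enrichment (the ratio of pileup to local background, 1 read added to each) and −log10 p. Their column of −log10 q was not used, as the score carries it. Pileup and background were solved from fold enrichment and −log10 p (largest error at the members 6.84e-04). The lowest DPF3a background was 1.17 reads, that of SMAD4 2.25 and that of p300 2.05. These floors depend on read number and fragment length, neither of which is known here, and values were read within a list.

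Genes were those of GENCODE 44 (20007 protein-coding), and exon numbers are those of the canonical transcript. Overlaps were checked against bedtools 2.31.1, with identical counts, and the code was tested on simulated data. Python 3.11.15, pandas 2.3.3, scipy 1.17.1 and pysam 0.24.0 were used. Intervals are exact Poisson at 95%.

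The members, roles and lists were chosen with earlier results of these data known. Named were members with a site of all 3, the 5 genes with most DPF3a-SMAD4 sites (4 genes tied at 5), those with a summit in a coding exon or with no peak, the highest of each role in each list, and others given to account for all members. The windows with the palindromic element were chosen after their values were seen. Alternatives were scores over 100 and 200, equal-size lists of 20380 peaks, windows with 0 and 20000 bp upstream, other promoter widths, canonical starts alone, an overlap of 1 bp, summits within 200 bp, and leaving out coding-exon summits or summits shared with another gene.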

Additional observations from a re-analysis of the deposited data

How the results depend on the processing

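No paired analysis was possible because the 2 libraries of a factor were pooled into its list, and leaving out a library was not possible for the same reason. Of 240 recomputed values, 188 stayed within 1.5 times of the reported value or, for the AP-1 shares, within their interval at 95%.

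The score threshold mattered most, since fewer peaks pass a stricter one by construction. With scores over 100, DPF3a kept 100 peaks and 19 promoter genes, p300 kept 10 peaks at 10 genes and 5 promoter genes, sites of all 3 remained at 3 genes, and 68 DPF3a-SMAD4 sites were left. The background fell too: 68.0% of pathway genes against 45.2% of protein-coding genes had a DPF3a peak, 20% against 17.7% a p300 peak, 60.0% against 35.3% a DPF3a-SMAD4 site and 6.0% against 8.08% a site of all 3. By role, DPF3a had 5 ligands, and p300 had 1 ligand, 1 latency protein, 3 receptors, 3 SMAD transducers, 2 feedback inhibitors and 0 target genes. With scores over 200, DPF3a kept 59 peaks at 26 genes with 9 promoter genes (5 ligands, 6 receptors, 1 SMAD transducer and 3 target genes), SMAD4 93 peaks with 0 antagonists, p300 1 peak at 1 gene, a promoter peak at a SMAD transducer, with 0 genes in the other roles, sites of all 3 were at 0 genes, and 43 DPF3a-SMAD4 sites were left. The shares were then 52.0% against 25.2% (DPF3a), 84.0% against 60.2% (SMAD4), 2.0% against 1.88% (p300), 48.0% against 16.6% (DPF3a-SMAD4 sites) and 0.0% against 0.635% (sites of all 3).

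With lists of equal size, DPF3a had 72 peaks at 28 genes with 12 promoter genes (5 ligands, 7 receptors and 1 SMAD transducer), SMAD4 91 peaks with 0 antagonists, sites of all 3 were at 8 genes, and DPF3a-SMAD4 sites numbered 50. The shares were 56.0% of pathway genes against 30.2% (DPF3a), 82.0% against 58.9% (SMAD4), 50% against 18.7% (DPF3a-SMAD4 sites) and 16% against 8.82% (sites of all 3). Gene bodies alone left SMAD4 at 1 antagonist and DPF3a at 3 target genes. Without coding-exon summits p300 was at 2 target genes. An overlap of 1 bp gave sites of all 3 at 28 genes (56.0% against 41.0%), and canonical starts alone gave p300 promoter peaks at 10 genes. The share of protein-coding genes with a promoter peak was not computed under any alternative, so the promoter counts of these alternatives have no background. In windows of 100 bp on either side, the AP-1 share was 26.0% in the DPF3a list and 17.9% in the SMAD4 list. Over all protein-coding windows these wider shares were 30.6% and 21.2%. In the p300 list the share was 8.06% against 6.07%. Leaving out SMAD3 and SMAD6, an alternative added after seeing the data, gave densities of 3.30, 3.77 and 1.42 summits per 100 kb for DPF3a, SMAD4 and p300.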
